A study of Mus musculus with 6 samples.

Results

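Retinoic acid signalling was examined through 10 genes in the epithelium of the mouse embryonic esophagus with and without p63. The genes were taken by name from the 23284 gene symbols of the count table: the synthesis enzymes Aldh1a1, Aldh1a2 and Aldh1a3, the breakdown enzymes Cyp26a1 and Cyp26b1, the uptake and binding genes Stra6 and Crabp2, and the receptors Rara, Rarb and Rarg. The 3 p63KO samples were homozygous for Trp63-CreERT2, an allele in which a tamoxifen-dependent Cre recombinase is inserted at Trp63, and the 3 control samples came from littermates whose own genotype is not given beyond the word control and a title of WT. All 6 were epithelium isolated from the esophagus at E12.5. How many embryos each sample holds is not given, so the tests below rest on differences between libraries that may be technical.

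Retinoic acid is made from vitamin A. Retinol enters some cells through the receptor STRA6, is oxidised to retinal, and is then oxidised irreversibly to retinoic acid by the ALDH1A enzymes. CYP26 enzymes clear it, so that neighbouring tissues can hold very different amounts, and CRABP2 carries it to the nucleus. There it binds RAR proteins, which sit with RXR partners on DNA at paired half-sites and switch target genes on when the ligand is bound. In the early foregut retinoic acid is known for its part in patterning the endoderm and the organs that bud from it, and in stratified epithelia for restraining squamous and keratinising differentiation.

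Of these genes, Rarg and Cyp26a1 fell most in p63KO. Rarg, the receptor that predominates in skin and other stratified epithelia, was at 0.355 times its control level and Cyp26a1 at 0.424 times. Aldh1a1 fell and Crabp2 rose by much less, and both of those calls depended on single libraries. Rara, Rarb, Aldh1a2, Stra6 and Cyp26b1 did not pass the test, and Aldh1a3 did not pass the filter on low counts. Cyp26b1 was the exception that turned on a single library: without control replicate 3 it was higher in p63KO.

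Both Rarb and Cyp26a1 are textbook targets of retinoic acid itself, each through a response element close to the start of transcription. Their promoter windows are shown because both hold such an element, while Cyp26a1 fell and Rarb did not pass the test. The windows are from RefSeq on build GRCm38.p6, and cover 250 bases before and 50 bases after the annotated start. They are read 5′ to 3′ on the strand of the gene, and the 17 capitals mark the direct repeat of 2 half-sites with a spacer of 5 bases. The files were made on mm9, and no count in the text rests on these coordinates.
Cyp26a1, chr19:37697558-37697857, plus strand: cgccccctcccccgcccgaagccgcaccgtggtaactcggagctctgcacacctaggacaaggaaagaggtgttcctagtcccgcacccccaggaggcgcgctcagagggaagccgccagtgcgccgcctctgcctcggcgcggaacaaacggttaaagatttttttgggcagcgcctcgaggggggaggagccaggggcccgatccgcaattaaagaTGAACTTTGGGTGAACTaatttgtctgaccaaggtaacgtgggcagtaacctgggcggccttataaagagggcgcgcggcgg
Rarb, chr14:16575427-16575726, minus strand: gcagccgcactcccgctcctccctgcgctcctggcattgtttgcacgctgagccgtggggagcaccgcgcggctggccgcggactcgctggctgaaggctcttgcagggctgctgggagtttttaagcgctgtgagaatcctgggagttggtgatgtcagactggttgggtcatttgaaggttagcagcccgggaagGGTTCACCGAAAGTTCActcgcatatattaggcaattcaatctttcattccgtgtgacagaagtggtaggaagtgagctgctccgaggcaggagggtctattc

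The motif searched was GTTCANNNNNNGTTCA, on both strands, with any base allowed at N. It was present in the windows of 24 of 27025 genes, or 0.0888%, and among the 8 members with a window it was found in these 2. In Rarb the capitals run from base -53 to -37 before the start, on the strand of the gene, and read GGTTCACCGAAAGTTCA. In Cyp26a1 they run from base -32 to -16 on the opposite strand, and the repeat itself reads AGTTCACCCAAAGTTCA. The looser form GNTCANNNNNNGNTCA, of which every match to the first motif is also a match, was in the windows of 0.988% of genes and in the same 2 members. With a spacer of 2 bases, the motifs GTTCANNNGTTCA and GNTCANNNGNTCA were in the windows of 0.263% and 1.27% of genes, and no match to either lay in a member's window. A match is a description of these letters and shows nothing about binding in these samples.

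Total counts per library were between 13335328 and 16506401 in p63KO and between 16948971 and 20093838 in control, where a count of 3 corresponds to between 0.153 and 0.223 CPM (the count divided by a library size scaled for composition, so that libraries can be compared). Trp63, the targeted gene, was at 76.7, 62.2 and 75.4 CPM in the p63KO libraries and at 583.9, 674.1 and 550.6 CPM in the control libraries. All p63KO libraries lay below all control libraries. Epithelial identity was present in both groups, with Epcam, an epithelial adhesion protein, between 943.9 and 953.2 CPM in p63KO and between 846.3 and 858.7 CPM in control. Control replicate 3 stood apart in genes of neighbouring endoderm. Its summed level of the 8 listed markers of lung, thyroid, liver, stomach, intestine and pancreas was 69.1 CPM, while it was between 1.78 and 1.87 CPM in p63KO and was 2.74 and 1.28 CPM in the other control libraries. Hnf4a, a transcription factor of liver, stomach and intestine, supplied most of it (48.6 CPM) with Afp (16.6 CPM), whereas Alb, the albumin gene, had no count in any library. Cyp26b1, Rbp4, Tgm2 and the mesothelium and blood markers are given with and without that library.

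**Figure D1:**
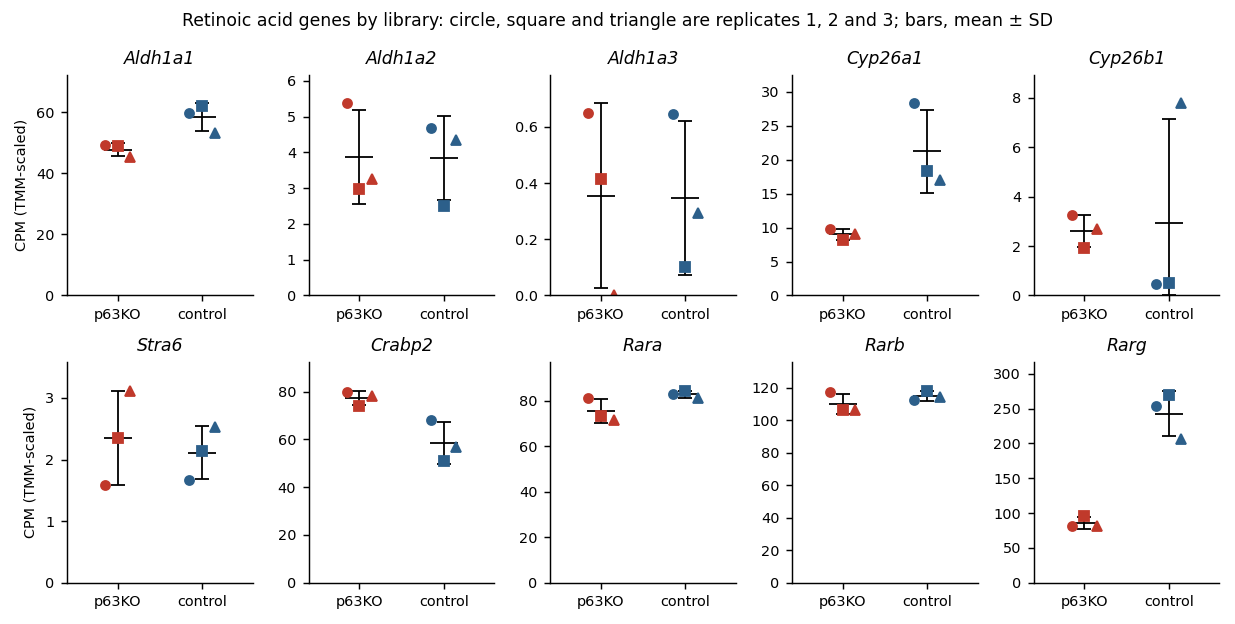
Level of each of the 10 genes in CPM, on a linear axis from 0 with its own scale in each panel. Red symbols are p63KO and blue symbols are control libraries, with replicates 1, 2 and 3 as circle, square and triangle and the bars as mean ± SD, drawn no lower than 0. Rarg lies between 80.8 and 96.1 CPM in p63KO and between 206 and 269 CPM in control, and the triangle of control Cyp26b1 stands far above the other control libraries.

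In the edgeR quasi-likelihood test across 13849 genes, a gene was called changed at a Benjamini-Hochberg adjusted p under 0.05. The call was reached by 29.6% of all genes tested, 15.3% higher and 14.3% lower in p63KO. Of the 9 members tested, 3 fell, 1 rose and 5 did not pass, and their median log2 fold change was -0.13, beside -0.01 over all genes. Crabp2, the single member higher, lost its call without p63KO replicate 1 or p63KO replicate 3, and without control replicate 3 there were 2 members higher, Crabp2 and Cyp26b1. The groups did not overlap for 4 of the 9 members, against 44.1% of all genes tested, so neither count sets the members far from the background.

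The receptors differed among themselves. Rarg had 82.1, 96.1 and 80.8 CPM in the p63KO libraries, against 253, 269 and 206 CPM in the control libraries. Every p63KO library was far below every control library. The mean was 86.3 ± 8.51 CPM in p63KO and 242.9 ± 32.8 CPM in control (SD, n = 3 each), a log2 fold change of -1.49 (SE 0.11, edgeR adjusted p = 1.03e-05). In these bulk samples, fewer cells that express a gene and less RNA per cell cannot be told apart. With 1 library left out at a time, the log2 fold change of Rarg stayed between -1.60 and -1.41, and the edgeR adjusted p was at most 0.00024.

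Rarb, which is itself induced by retinoic acid through the element shown above, had 117, 106 and 106 CPM in p63KO, against 112, 118 and 114 CPM in control. The groups overlapped, and the log2 fold change was -0.06 (SE 0.06, edgeR adjusted p = 0.51). Rara, the most broadly expressed of the family, had 81.3, 73.4 and 71.4 CPM in p63KO, against 82.7, 84.4 and 81.2 CPM in control. One p63KO library reached the control range, and the log2 fold change was -0.13 (SE 0.07, edgeR adjusted p = 0.18).

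To compare the 3 receptors with each other, CPM was divided by the exon length of each gene in GENCODE M21, which is not the authors' annotation. On this scale, CPM per kilobase of exon, Rarb came first in p63KO at 32.4 ± 1.86, then Rarg at 25.4 ± 2.51 and Rara at 17.6 ± 1.21. In control the order was Rarg at 71.6 ± 9.67, Rarb at 33.9 ± 0.88 and Rara at 19.3 ± 0.37 (SD, n = 3 each). Neighbours in either order did not overlap between libraries. Rarg thus made up 33.7 ± 2.94% of the summed receptor level in p63KO, against 57.2 ± 3.15% in control, while the sum itself was 75.4 ± 3.12 in p63KO and 124.8 ± 10.4 in control. The ratio of Rarg to Rarb counts within a library, which needs no length, was 0.701, 0.907 and 0.759 in p63KO and 2.25, 2.28 and 1.81 in control. The ratios did not overlap, with p = 0.1 in a two-sided exact permutation test, the smallest value that 3 against 3 libraries allow. It was 1 of 4 ratios tested, and the other 3 had the same p, which is also the value after adjustment over the 4.

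**Figure D2:**
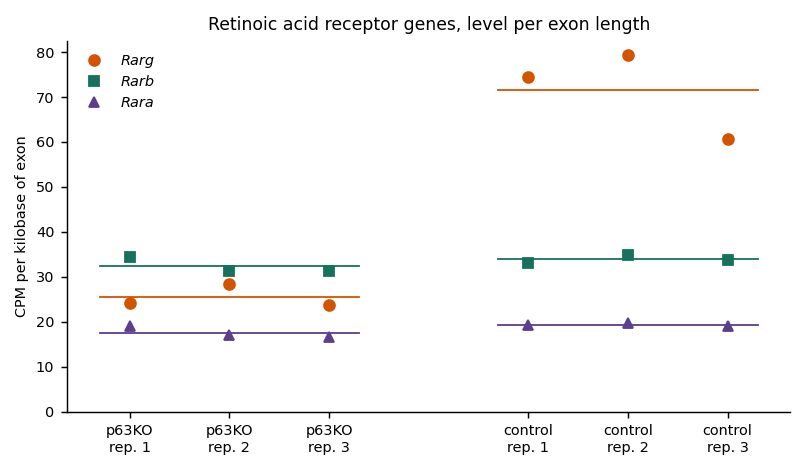
CPM per kilobase of exon (linear axis from 0) for Rarg, Rarb and Rara in each p63KO and control library, with a line at each group's mean. Rarg is the highest of the 3 in every control library at 60.8 to 79.4, and lies between Rarb and Rara in every p63KO library at 23.8 to 28.3.

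By Pearson correlation of log2 CPM over the 6 libraries, the tested genes with a pattern most like that of Rarg were Dlc1, Ctdspl and Rnf169, each with r of 0.999. The 6 points form 2 separate groups, so r mainly reflects that these genes were also lower in p63KO. Dlc1, a gene first described as deleted in liver cancer, had a log2 fold change of -1.27. Ctdspl, a small phosphatase gene, was at -1.14, and Rnf169, a gene for a ubiquitin ligase of the DNA damage response, at -1.56.

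Among the partners of these receptors, Rxra fell with Rarg while Rxrb did not pass. Rxra had 120, 120 and 107 CPM in p63KO, against 237, 224 and 207 CPM in control, with a log2 fold change of -0.95 (SE 0.07). The ratio of Rarg to Rxra counts was 0.747 ± 0.060 in p63KO and 1.09 ± 0.105 in control (SD, n = 3 each), with the groups again not overlapping. Rxrb was at -0.12 (SE 0.06, edgeR adjusted p = 0.16), and Rxrg had too few counts to test. All 6 listed coregulators were tested, and 3 of them fell, where 14.3% of all genes tested fell. Nrip1, a corepressor that binds liganded receptors and is induced by retinoic acid, fell to 18.8 ± 3.35 CPM in p63KO, against 57.8 ± 3.31 CPM in control. The coactivator Ncoa2 fell by 0.31 on the log2 scale, while the corepressor Ncor1 was at -0.01, Ncoa1 at -0.07 and Ncoa3 at -0.17.

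Breakdown of retinoic acid was represented by genes of very different level. Cyp26a1, whose enzyme hydroxylates all-trans retinoic acid and which is among the genes most sharply induced by it, had 9.80, 8.17 and 9.06 CPM in p63KO, against 28.3, 18.4 and 17.1 CPM in control. The p63KO libraries lay close together and below all control libraries, and control replicate 1 was the highest. The log2 fold change was -1.24 (SE 0.20, edgeR adjusted p = 0.0014). Leaving out 1 library at a time gave values from -1.37 to -0.98, the smallest without control replicate 1, and edgeR adjusted p-values of at most 0.0089. The neighbouring gene Cyp26c1, another member of the enzyme family, did not pass the filter on low counts. It had 3, 1 and 1 counts in the p63KO libraries and 17, 12 and 8 counts in the control libraries, and with no filter its log2 fold change was -2.52 (SE 0.67, edgeR adjusted p = 0.018). It is singled out after its values were seen.

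Cyp26b1, the other breakdown enzyme among the members, had 55, 28 and 36 counts in p63KO, or 3.25, 1.94 and 2.67 CPM. In control it had 9, 10 and 132 counts, or 0.48, 0.51 and 7.77 CPM. Control replicate 3, the library with Hnf4a, thus held the highest value of all, and the other control libraries held the lowest. With all libraries the log2 fold change was -0.14 (SE 0.89, edgeR adjusted p = 0.93). Without control replicate 3 it was 2.38 (SE 0.42, edgeR adjusted p = 0.0019), while with any other library left out it lay between -0.64 and 0.06. The part of the neighbouring endoderm in that value was not tested.

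**Figure D3:**
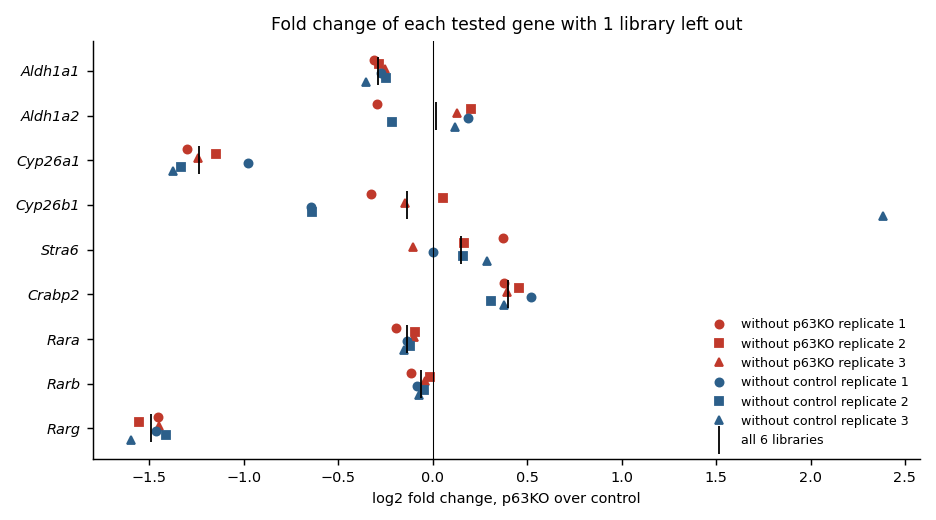
Log2 fold change of each tested gene with 1 library left out, red symbols for a missing p63KO library and blue for a missing control library, with a black bar for the value from all 6. Rarg and Cyp26a1 stay left of 0 in every case, while Cyp26b1 moves to 2.38 without control replicate 3.

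The synthesis enzymes were led by Aldh1a1. It had 49.3, 48.9 and 45.3 CPM in p63KO, against 59.9, 62.1 and 53.3 CPM in control. The groups did not overlap, although p63KO replicate 1 and control replicate 3 were close. Aldh1a1 fell by 0.29 on the log2 scale (SE 0.08, edgeR adjusted p = 0.022). The call was lost without p63KO replicate 2 (edgeR adjusted p = 0.061), p63KO replicate 3 (0.083), control replicate 1 (0.072) or control replicate 2 (0.081). Aldh1a7, a close copy of Aldh1a1 in the mouse genome that is not credited with retinoic acid synthesis, had 177.9, 148.3 and 200.6 CPM in p63KO and 175.4, 131.5 and 162.6 CPM in control (log2 fold change 0.17, edgeR adjusted p = 0.38). How the counting divided reads between the pair is not given, so the values of Aldh1a1 are uncertain to that extent. It was chosen for mention as a near copy and is no member.

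Aldh1a2, the main retinoic acid source of embryonic mesoderm, was low, with 5.37, 2.98 and 3.27 CPM in p63KO and 4.67, 2.50 and 4.36 CPM in control. The groups overlapped throughout, and the log2 fold change was 0.02 (SE 0.32, edgeR adjusted p = 0.97). Aldh1a3, an enzyme of placodes and the ventral eye, had 11, 6 and 0 counts in p63KO and 12, 2 and 5 counts in control, and did not pass the filter on low counts. With no filter its log2 fold change was 0.08 (SE 0.91, edgeR adjusted p = 0.96). Per kilobase of exon, Aldh1a1 was between 18.9 and 20.6 CPM in p63KO and between 22.3 and 25.9 CPM in control. On the same scale Aldh1a2 averaged 1.71 ± 0.58 CPM in p63KO and 1.70 ± 0.52 CPM in control (SD, n = 3 each). Set against the breakdown enzyme, the ratio of Aldh1a1 to Cyp26a1 counts was 5.03, 5.98 and 5 in p63KO and 2.12, 3.38 and 3.12 in control, with no overlap.

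Crabp2, the cytosolic carrier that passes retinoic acid to its receptors and that is itself inducible by it, was the most abundant of the 10 genes per exon length in p63KO. It had 79.9, 73.9 and 78.2 CPM in p63KO, against 68.0, 50.9 and 56.8 CPM in control. The groups did not overlap, and control replicate 1 came nearest to p63KO. Crabp2 rose by 0.40 on the log2 scale (SE 0.10, edgeR adjusted p = 0.016). The call was lost without p63KO replicate 1 (edgeR adjusted p = 0.057) or p63KO replicate 3 (0.054). Stra6, the membrane receptor for retinol carried by its plasma binding protein, had 1.59, 2.35 and 3.12 CPM in p63KO and 1.66, 2.15 and 2.53 CPM in control. Its groups overlapped (log2 fold change 0.15, SE 0.32, edgeR adjusted p = 0.78).

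Of the 39 other retinoid genes listed, 26 were tested. In p63KO 5 rose, 6 fell and 15 did not pass, with a median log2 fold change of -0.09. Over all genes tested 15.3% rose and 14.3% fell. Without p63KO replicate 1 or p63KO replicate 3, 3 rose, Adh1 and Adh5 being the calls lost. The other 13 genes had too few counts, among them Lrat, the enzyme that stores retinol as ester, with 0 counts in p63KO and 11 in control. With no filter the log2 fold change of Lrat was -4.77 (SE 1.65, edgeR adjusted p = 0.070), not past the test. Adh7, also among the 13, went the other way with 20 counts in p63KO and 4 in control, and did not pass either.

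Retinol oxidation and its reversal was the largest role, with 12 of 15 genes tested, 4 higher and 1 lower in p63KO. Rdh1, a retinol dehydrogenase, had 4.01, 3.05 and 2.75 CPM in p63KO, against 0.48, 0.56 and 0.35 CPM in control, with a log2 fold change of 2.79 (SE 0.33). Rdh1 belongs to a cluster of similar genes, so its counts carry the same uncertainty as those of Aldh1a1. Dhrs9, Adh1 and Adh5, a further dehydrogenase and alcohol dehydrogenases, rose by 1.86, 2.28 and 0.24 on the log2 scale. Dhrs3, which reduces retinal back to retinol and is induced by retinoic acid, fell to 77.1 ± 4.15 CPM in p63KO, against 110.1 ± 9.62 CPM in control (log2 fold change -0.51, SE 0.08). Rdh10, the main retinol dehydrogenase of the embryo, was at 0.47 (SE 0.21, edgeR adjusted p = 0.14).

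Of the 8 listed transport and binding genes, 4 were tested, of which 1 rose and 1 fell in p63KO. Fabp5, a fatty acid carrier of keratinocytes that can also hand retinoic acid to another nuclear receptor, fell to 9.60 ± 1.30 CPM in p63KO, against 41.3 ± 6.39 CPM in control (log2 fold change -2.11, SE 0.15). Rbp4, the plasma carrier of retinol and a product of liver and visceral endoderm, followed the same split among libraries as Cyp26b1. It had 16.3, 14.1 and 15.4 CPM in p63KO, against 1.66, 1.53 and 58.1 CPM in control, with a log2 fold change of -0.41 (SE 1.07, edgeR adjusted p = 0.82). Without control replicate 3 the value was 3.25 (SE 0.20, edgeR adjusted p = 2.2e-06), and Rbp4 was singled out after its values were seen. The most abundant gene was Dgat1 for ester storage (log2 fold change 0.08), Cyp1b1 among other enzymes (-1.05, SE 0.42, edgeR adjusted p = 0.093) and Bco1 for carotene cleavage, which was not tested.

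**Figure D4:**
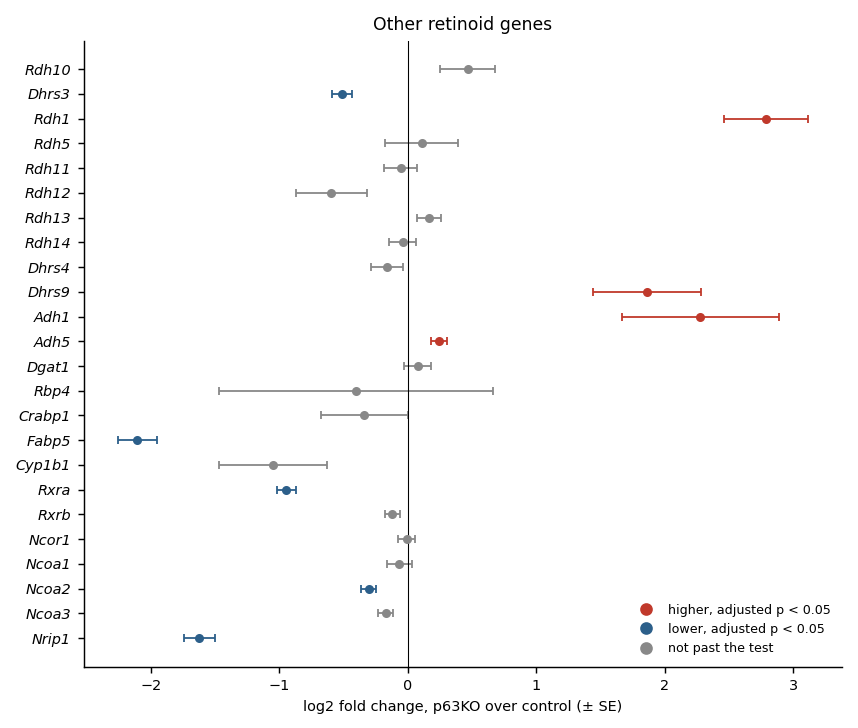
Log2 fold change ± SE of p63KO over control for 24 tested genes of the other retinoid list, in red where higher, blue where lower and grey where the edgeR test was not passed. Nrip1 and Fabp5 lie farthest to the left and Rdh1 farthest to the right, and Rbp4, with 58.1 CPM in control replicate 3 and under 2 CPM in the other control libraries, has the widest bar.

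Genes reported elsewhere to respond to retinoic acid were read beside the pathway itself, from a list drawn up with earlier results for some of them known. Of 19 genes reported as induced, 14 were tested, of which 8 rose in p63KO and 6 did not pass. The share that rose over all genes tested was 15.3%. The median of the whole list, 15 genes tested, was 0.36. Hoxb5, a homeobox gene of the foregut region, had 10.8, 8.24 and 9.06 CPM in p63KO, against between 0.77 and 1.24 CPM in control (log2 fold change 3.17, SE 0.25). Hoxb4 and Hoxa5, further homeobox genes of axial position, rose by 1.53 and 1.37 on the log2 scale, and Hoxa4 by 0.80. Meis1 and Meis2, cofactors of Hox proteins, rose by 0.36 and 0.57.

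Tgm2, a transglutaminase gene widely used as a readout of retinoic acid, rose by 1.41 on the log2 scale (SE 0.31). It had 57.8, 76.0 and 52.4 CPM in p63KO, against 15.7, 16.4 and 38.5 CPM in control, and without control replicate 3 the log2 fold change was 1.95. Tbx1, a pharyngeal factor that retinoic acid is known to reduce and the single gene listed as such, had 4.25, 6.44 and 6.61 CPM in p63KO, against 44.5, 52.4 and 40.6 CPM in control (log2 fold change -3.00, SE 0.18). Among the genes listed as induced that did not pass were Nr2f1 (-1.57), Rarres1 (-1.35), Nr2f2 (-0.06), Bhlhe40 (-0.07) and Ripply3 (0.36). Of the 14 tested genes on this list reported as induced, 8 were thus higher in p63KO, Tgm2 among them, and 0 were lower. Genes named above as induced by retinoic acid that are not on this list were divided. Cyp26a1, Dhrs3 and Nrip1 were lower in p63KO, Crabp2 was higher and Rarb did not pass.

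**Figure D5:**
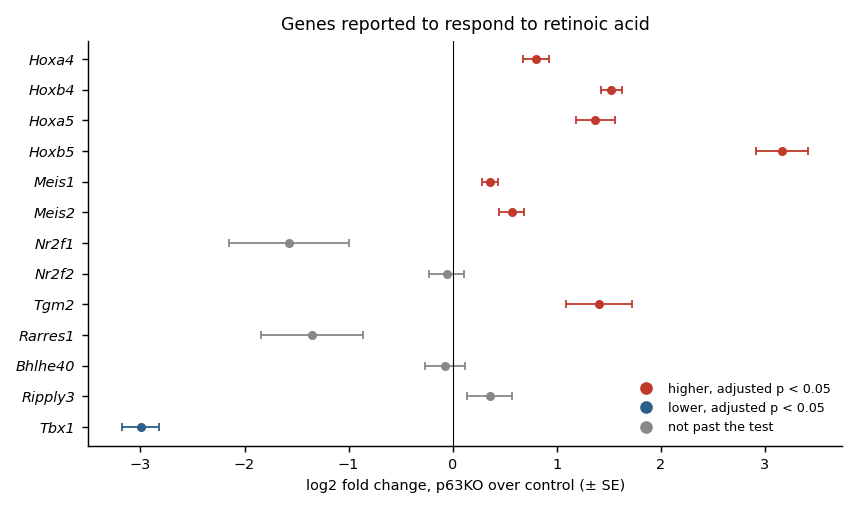
Log2 fold change ± SE of p63KO over control for 13 tested genes reported to respond to retinoic acid, coloured red where higher, blue where lower and grey where the edgeR test was not passed. The 4 Hox genes shown lie between 0.80 and 3.17, and Tbx1 lies at -3.00.

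Markers of other cell types moved with the groups as well. All 7 listed neuroendocrine genes rose, and their summed level was between 412 and 519 CPM in p63KO and between 3.58 and 7.77 CPM in control. In the mesenchyme list of 18 genes, 9 fell and 3 rose, where 14.3% of all genes tested fell and 15.3% rose. The number that fell was 5 without p63KO replicate 3 and 4 without control replicate 1. The summed level of its genes other than Dcn was between 387 and 559 CPM in p63KO and between 546 and 723 CPM in control. With Dcn, a small matrix proteoglycan gene that made up most of it in p63KO, the sum was between 1516 and 1902 CPM in p63KO and between 757 and 875 CPM in control. None of these mesenchyme genes was at 0, and Aldh1a2 had about the same level in both groups beside them.

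The summed levels of the other marker lists are given as ranges. For epithelium they were 3545 to 3625 CPM in p63KO and 3338 to 3468 CPM in control, with 3 genes higher and 1, the adhesion gene Cdh1, lower by 0.40 on the log2 scale. For neural crest and neurons they were 249 to 316 CPM in p63KO and 21.8 to 38.7 CPM in control, and for muscle 31.0 to 56.6 CPM in p63KO and 77.9 to 177.1 CPM in control. Mesothelium was between 5.61 and 10.9 CPM in p63KO and between 4.90 and 14.5 CPM in control, or 6.07 and 4.90 CPM without control replicate 3. Its genes did not move together. Upk1b, a uroplakin gene, fell by 4.37 on the log2 scale, and Msln (mesothelin) and Gpm6a, a membrane glycoprotein gene, rose by 2.31 and 2.71. Without control replicate 3 these values were -3.80, 3.05 and 3.25. Endothelium was between 4.16 and 7.72 CPM in p63KO and between 4.94 and 7.76 CPM in control. Blood was between 9.63 and 23.3 CPM in p63KO and between 1.72 and 37.2 CPM in control, the highest value again in control replicate 3. Without that library control was at 1.72 and 5.77 CPM, below every p63KO library, and the embryonic globin genes Hbb-y and Hba-x were higher in p63KO, with log2 fold changes of 2.05 and 2.36 (edgeR adjusted p = 0.013 and 0.039). With all libraries they were at 0.03 and -0.14 and did not pass. The part of any of these cell types in the values of the retinoic acid genes was not tested.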

How the data were processed

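The samples are bulk RNA-seq of isolated epithelium, with RNA from a PicoPure kit and libraries from a TruSeq RNA kit, per the labels. The values the authors deposited are unnormalised whole-number counts, 1 row per gene symbol. The submitters' processing notes name bcl2fastq (1.8.4), TopHat2 (2.1.0), DESeq2 and mm9. Counter, annotation and strand setting are not given, so reads of overlapping genes or near copies cannot be assigned with certainty. Whether reads were single or paired is not settled by the labels.

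The main test was edgeR 4.0.16 (R 4.3.3): filterByExpr (minimum count 10, total 15), which kept 13849 genes, TMM scaling, and a quasi-likelihood fit of group alone, with Benjamini-Hochberg adjustment over the genes kept. SE is the size of the log2 fold change over the square root of F. CPM values use TMM-scaled library sizes. Permutation tests used scipy 1.17.1. Alternatives were DESeq2 1.42.0, limma-voom (limma 3.58.1), other scalings and filters, robust dispersions, a replicate block, each library left out and a stricter threshold. The fit was tested on simulated data.

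The members, the gene lists and the rule for named genes were chosen with earlier results of these data known. That rule takes all members, Trp63, the 6 other retinoid genes and 4 responsive genes called with the lowest p, the most abundant gene of each role or marker list, and the 3 genes most like the member with the lowest p. A few listed genes enter the counts and are not reported by name here. Other genes are named to complete a list or were chosen after their values were seen. Promoter windows came from RefSeq (GRCm38.p6) for 8 of the 10 members, all but Aldh1a3 and Crabp2. Bco1, Stra6l and Foxf1 were matched through other names in RefSeq.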

Additional observations from a re-analysis of the deposited data

How the results depend on the processing

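The calls of Rarg, Cyp26a1 and Trp63 and of the 6 other retinoid and 4 responsive genes with the lowest p were the same under every alternative, and other scalings moved the median of all genes by at most 0.02 on the log2 scale. At an edgeR adjusted p under 0.01, 1353 genes were higher and 1227 lower in p63KO. Of the members 0 were then higher, against 1, Crabp2, at an adjusted p under 0.05. Among other retinoid genes 3 were higher. Of the 45 tested markers of other cell types, outside the epithelium and neuroendocrine lists, 4 were lower and 9 higher. At an adjusted p under 0.05 these were 14 lower and 10 higher, beside 14.3% and 15.3% of all genes tested. The Aldh1a1 (-0.29) and Crabp2 (0.40) calls were lost. Cyp26b1 changed sign with limma-voom (1.10) and with the replicate block (0.74), neither past the test. Whether the replicate numbers pair the libraries is not given. Correlations of deviations were 0.17, 0.26 and 0.03 for libraries that share the numbers 1, 2 and 3. Between libraries of different number they lay between -0.23 and 0.06, and control replicate 3 correlated best with p63KO replicate 1 (0.06). As a block the numbers brought the genes called to 2397 higher and 2381 lower. They also brought the responsive genes that were lower to 2 and added Ncoa3 to the other retinoid genes. With 1 library left out, 0 to 2 members were higher and 2 to 3 lower, 3 to 6 other retinoid genes were higher and 6 to 8 lower, and 7 to 16 markers of other cell types were lower (7 without p63KO replicate 3, 8 without control replicate 1). Log2 fold changes then ranged from -0.30 to 0.20 for Aldh1a2, -0.64 to 2.38 for Cyp26b1, -0.10 to 0.37 for Stra6 and -0.026 to 0.14 for Dgat1. Cyp1b1 passed without control replicate 2 (-1.33), and the Adh5 call was lost without p63KO replicate 1 or 3 or control replicate 1 or 2. The cause of these shifts was not tested. With no filter on low counts, 8 other retinoid genes were lower, Cyp26c1 and Stra6l (0 counts in p63KO and 21 in control) being the additions; depth limits the precision of such genes.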
